A study of Mus musculus with 18 samples.

Results

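The 10 genes Sema5b, Keg1, Nrep, Dclk3, Adra1b, Zfand4, Sec31b, Tlcd1, Tkfc and Acsm5 were followed through 18 mouse liver RNA sequencing libraries. They were selected on measured values, out of 56691 listed genes, because they were lower after ischemia and reperfusion than after sham surgery, or higher when oridonin was given with ischemia and reperfusion than when it was not. Those differences chose the genes, so they are given here as a description, without a test. All 10 had enough counts to enter the fit, which covered 14595 genes.

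The livers came from wild-type C57BL/6 mice, with no allele that differed between groups, in 3 groups of 6 libraries. In the IR-Ori group a clip on the portal triad made about 70% of the liver ischemic for 1 h, the clip was taken off, reperfusion lasted 6 h, and oridonin, a plant diterpenoid, was also given. In the IR group the ischemia and reperfusion were the same and no oridonin was given. The sham group had anaesthesia and a laparotomy and was not clipped. For oridonin the dose, route and time, and for the tissue the lobe, were not given in the sources used here. Whole tissue was sequenced, and fewer cells of a type and less RNA per cell cannot be told apart. The labels do not say that the libraries of a group came from separate animals, so p-values measure only the spread between these libraries, which may be technical.

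The liver breaks fructose down to triose phosphates, joins fatty and aromatic acids to coenzyme A and to glycine, and releases glucose from glycogen when catecholamines or glucagon reach hepatocytes. Of the 10 genes, 4 belong to these tasks. Adra1b encodes the α1B-adrenergic receptor, Tkfc the triose kinase of fructose breakdown, Acsm5 a mitochondrial medium-chain acyl-CoA synthetase, and Keg1 a relative of glycine N-acyltransferase. The others act in guidance signals (Sema5b), growth factor control (Nrep), phosphorylation (Dclk3), vesicle coats (Sec31b), membrane lipids (Tlcd1) and ubiquitin-related processes (Zfand4), and most of them have been studied mainly outside the liver.

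Libraries held 12770586 to 16536186 counts in IR-Ori, 12449529 to 16625908 in IR and 12755980 to 19798188 in sham. The share of counts on the 37 mitochondrial genes differed widely within each group, from 14.1% to 32.0% in IR-Ori, 6.52% to 42.9% in IR and 10.3% to 42.8% in sham. Its median also differed between groups, at 29.2% in IR-Ori, 17.0% in IR and 19.7% in sham. Summed levels of 8 hepatocyte markers, among them Alb and Hnf4a, were 26800 to 41600 FPKM in IR-Ori, 22700 to 32900 FPKM in IR and 14200 to 48500 FPKM in sham. FPKM are a gene's counts divided by its exonic length and by the library's total count. None of these 8 markers passed in IR against sham by edgeR (0 at an unadjusted p under 0.05, 0 by DESeq2 and 0 by limma). All 6 neutrophil markers, S100a8 and Retnlg among them, were higher in IR than in sham by edgeR at an adjusted p under 0.05, and their summed level was 7.53 to 61.0 FPKM in IR-Ori, 63.3 to 295 FPKM in IR and 3.81 to 25.9 FPKM in sham. All 4 monocyte markers tested were also higher in IR than in sham, at 1.16 to 2.18 FPKM summed over 5 markers in IR-Ori, 5.04 to 38.9 FPKM in IR and 0.53 to 2.18 FPKM in sham; Ly6c2 was listed at 0 in some IR-Ori and sham libraries. Over all genes tested, 5.52% were called higher in IR than in sham. Endothelial markers passed for 2 of 4 genes, Lyve1 and Pecam1, both higher in IR (10.7 to 24.2 FPKM in IR-Ori, 15.4 to 39.4 FPKM in IR and 8.54 to 26.5 FPKM in sham, summed). The others, Stab2 and Clec4g, had log2 fold changes of 0.24 and -0.19 in IR against sham (edgeR adjusted p = 0.735 and 0.811). Lyve1 averaged 10.3 FPKM in IR and 1.72 FPKM in sham. Stellate markers passed for 1 of 6, Pdgfrb, higher in IR (10.8 to 23.0 FPKM in IR-Ori, 21.2 to 38.6 FPKM in IR and 11.2 to 26.9 FPKM in sham). Dcn, the stellate marker with the highest mean FPKM, had a log2 fold change of 0.50 in IR against sham. Reln, Lrat, Col1a1 and Des went the other way, at -0.18, -0.30, -0.09 and -0.26. Dcn and these markers had edgeR adjusted p-values of 0.326 to 0.934. Cholangiocyte markers passed for 1 of 5, Sox9, higher in IR (11.5 to 36.6 FPKM in IR-Ori, 40.6 to 82.9 FPKM in IR and 17.9 to 57.7 FPKM in sham). Sox9 averaged 10.7 ± 15.3 FPKM in IR (SD, n = 6), and Krt19, Krt7, Epcam and Spp1 had edgeR adjusted p-values of 0.591 to 0.859. By edgeR 0 of 5 Kupffer, 0 of 2 B cell and 0 of 3 erythroid markers passed, with 0, 1 and 2 of them at an unadjusted p under 0.05 and 0 by DESeq2 or limma. The part of these cells in the levels below was not tested.

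In IR against sham, 7.89% of the 14595 genes passed at an adjusted p under 0.05 by edgeR's quasi-likelihood test, 2.36% of the genes were called lower in IR, and 1.13% of genes were lower in every IR library than in every sham library. Of the 10 genes, 9 were lower in IR by FPKM in all 36 pairs of libraries, and Tkfc in 31 of 36. The genes were picked on this difference or on IR-Ori against IR, so these counts are no test. By scaled CPM, in which library totals are adjusted for composition, 8 were lower in all pairs, since Adra1b was lower in 35 of 36. In IR-Ori against IR, 3.6% of genes passed, 0.596% were called higher in IR-Ori, and 0.391% were higher in every IR-Ori library. Of the 10, Zfand4, Sec31b, Tlcd1, Tkfc and Acsm5 were higher in every IR-Ori library, and the other 5 overlapped. In IR-Ori against sham 0.0% of genes passed by edgeR, with 1460 at an unadjusted p under 0.05, 38 by DESeq2 and 0 by limma, and all 10 overlapped; 0.171% of genes were higher and 0.0343% lower in every IR-Ori library than in every sham library. That comparison shares its libraries with the comparisons that chose the genes and is described, not tested. The median log2 fold change of the 10 genes was -1.92 in IR against sham, 1.58 in IR-Ori against IR and -0.32 in IR-Ori against sham, where the medians of all genes tested were 0.00, 0.00 and -0.01.

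**Figure D1:**
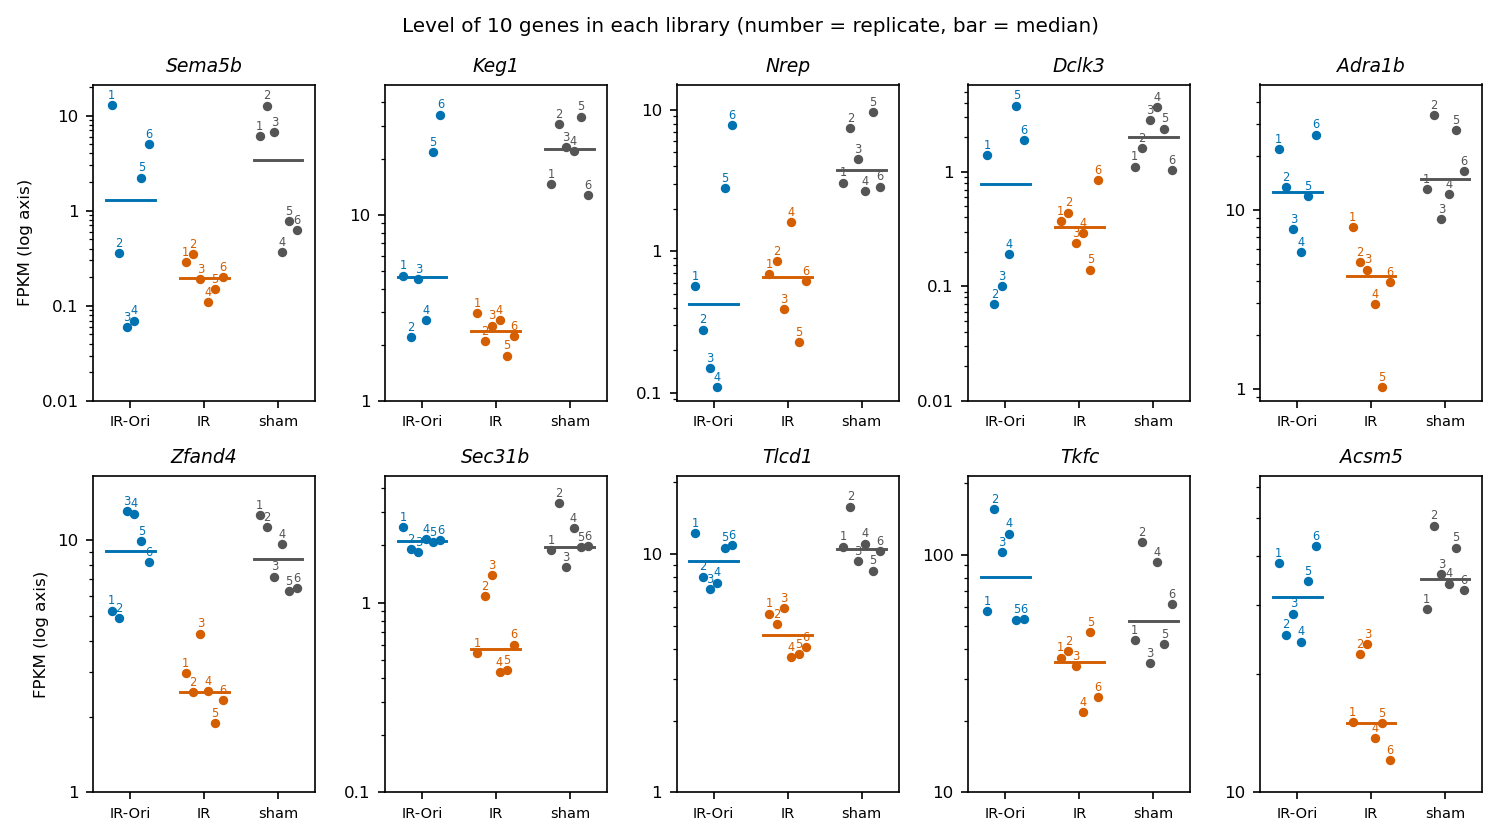
FPKM of each gene (log axis) in every library of IR-Ori, IR and sham, with the replicate number beside each point and a bar at the group median. Sema5b, Keg1, Nrep and Dclk3 spread widely within IR-Ori, where replicates 1, 5 and 6 are the top 3 for each, while Sec31b lies between 1.84 and 2.50 FPKM in all 6 IR-Ori libraries.

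Sema5b (ENSMUSG00000052133, chr16:35361515-35485102, GRCm39, plus strand, protein-coding) encodes a transmembrane semaphorin that steers growing nerve processes. Its level had a lowest, median and highest value of 0.06, 1.295 and 12.98 FPKM in IR-Ori, 0.11, 0.195 and 0.35 FPKM in IR, and 0.37, 3.45 and 12.71 FPKM in sham. All IR libraries lay below all sham libraries, but the sham libraries formed a wide range, with 6.13 to 12.71 FPKM in sham 1, 2 and 3 and 0.37 to 0.77 FPKM in sham 4, 5 and 6. The IR-Ori libraries were as uneven, since IR-Ori 1, 5 and 6 reached the lowest sham value, IR-Ori 3 and 4 lay below every IR library, and IR-Ori 2, at 0.36 FPKM, lay just above the highest IR library. Its log2 fold change was -4.43 ± 1.13 (SE) in IR against sham and 3.93 ± 1.11 in IR-Ori against IR, and 1 library moved each by more than 1.5-fold, to -3.82 without sham 2 and to 2.87 without IR-Ori 1. Against sham, IR-Ori was at -0.51 ± 0.95, at 0.14 without sham 2 and at -1.57 without IR-Ori 1. The standard deviation of its log2 CPM within IR-Ori, 3.04, was larger than in nearly every gene tested (100% of them, rounded), where the median gene had 0.44.

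Other semaphorins and their plexin and neuropilin receptors were higher in IR where they passed by edgeR. Of 23 tested out of 30, 5 were higher in IR than in sham and 0 lower by edgeR, where 5.52% of all genes were called higher, and the median log2 fold change was 0.49. Sema4c was highest by fold, at 0.77 ± 0.44 FPKM in IR-Ori, 1.77 ± 0.81 in IR and 0.51 ± 0.22 in sham (SD, n = 6 each), with a difference on the log2 scale of 1.71 ± 0.38 in IR against sham (edgeR adjusted p = 0.0112). Sema3f, a secreted semaphorin, differed by 1.31 ± 0.29 (edgeR adjusted p = 0.0109). Both calls held without each of the 18 libraries in turn. The receptors Plxnc1 and Plxna1 differed by 1.13 ± 0.31 and 0.86 ± 0.26, and Sema6d by 0.71 ± 0.21 (edgeR adjusted p = 0.0322, 0.0445 and 0.0421). The Plxnc1 call was lost without any 1 of sham 2 to 6, IR 4 or IR 5. The Sema6d call was lost without any 1 of sham 1 to 5, IR 4 to 6 or IR-Ori 1, 2, 4 or 6, and the Plxna1 call without any sham library or any 1 of IR 4 to 6 or IR-Ori 1 to 4 or 6. All 3 were lost with only the IR and sham libraries fitted, and Sema6d and Plxna1 also with no filter on low counts. In IR-Ori against IR 0 of the 23 passed by edgeR, with 7 at an unadjusted p under 0.05, 2 by DESeq2 and 1 by limma, and a median of -0.24. DESeq2 and limma each called 1 gene of the list lower in IR against sham. Sema4g, with the highest group means of the list, ran the same way as Sema5b and did not pass by edgeR. It averaged 62.9 ± 13.3 FPKM in IR-Ori, 25.8 ± 14.8 in IR and 58.8 ± 24.9 in sham (SD, n = 6 each). Its log2 fold change was -1.20 ± 0.38 in IR against sham and 1.27 ± 0.39 in IR-Ori against IR (edgeR adjusted p = 0.0609 and 0.0668).

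Adra1b (ENSMUSG00000050541, chr11:43665433-43792037, GRCm39, minus strand, protein-coding) encodes the receptor through which noradrenaline raises calcium in rodent hepatocytes and starts glycogen breakdown. Across the 6 libraries of a group its lowest, median and highest level was 5.81, 12.6 and 26.2 FPKM in IR-Ori, 1.02, 4.29 and 7.96 FPKM in IR, and 8.86, 14.8 and 33.6 FPKM in sham. IR and sham did not overlap in FPKM (in scaled CPM 1 pair of 36 did), and IR-Ori touched both, with 4 of its 6 libraries at or above the lowest sham value and IR-Ori 3 and 4 at or below the highest IR value. The log2 fold change was -2.10 ± 0.48 in IR against sham, 1.70 ± 0.47 in IR-Ori against IR and -0.40 ± 0.46 in IR-Ori against sham. IR 5 stood lowest by a wide margin, at 1.02 FPKM.

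Genes for a phosphorylase kinase subunit, a phospholipase C, a pair of inositol trisphosphate receptors and glycogen phosphorylase were also lower in IR than in sham. Of 13 adrenergic receptors, calcium signalling genes and glycogen enzymes tested out of 17, 5 were lower in IR than in sham and 0 higher by edgeR, where 2.36% of all genes were called lower, with a median log2 fold change of -0.64. Phka2, the liver regulatory subunit of phosphorylase kinase, averaged 2.72 ± 0.93 FPKM in IR-Ori, 1.74 ± 0.28 in IR and 3.42 ± 1.24 in sham (SD, n = 6 each), with a difference on the log2 scale of -1.01 ± 0.26 in IR against sham (edgeR adjusted p = 0.0208). Plcb1, a phospholipase C activated by Gq, differed by -1.0 ± 0.26, and the inositol trisphosphate receptors Itpr1 and Itpr2 by -0.72 ± 0.20 and -0.64 ± 0.18 (edgeR adjusted p = 0.0243, 0.0311 and 0.0308). Pygl, liver glycogen phosphorylase, averaged 21.3 ± 4.26 FPKM in IR-Ori, 16.8 ± 3.70 in IR and 29.8 ± 10.8 in sham (SD, n = 6 each; log2 fold change -0.88 ± 0.25 in IR against sham, edgeR adjusted p = 0.0389). The count rested on single libraries, since 0 of the list passed without IR 5, and limma called 0 and DESeq2 5 of the list. It was 2, Plcb1 and Phka2, with no filter on low counts and also with only the IR and sham libraries fitted. Plcb1 was also lost without sham 3. Itpr1 was lost without sham 1, sham 4 or IR 4, Itpr2 without sham 3, sham 4 or IR 4, and Pygl without sham 1, sham 4, IR 2 or IR 4. None (0 of 13) passed in IR-Ori against IR by edgeR, with 5 at an unadjusted p under 0.05, 1 by DESeq2 and 0 by limma, and a median of 0.46.

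Nrep (ENSMUSG00000042834, chr18:33570072-33597082, GRCm39, minus strand, protein-coding) encodes P311, a small protein first known from regenerating nerve and reported to promote translation of TGF-β. Its lowest, median and highest level was 0.11, 0.425 and 7.81 FPKM in IR-Ori, 0.23, 0.655 and 1.60 FPKM in IR, and 2.67, 3.77 and 9.65 FPKM in sham. Only IR-Ori 5 and IR-Ori 6 of the 6 IR-Ori libraries reached the sham range, at 2.80 and 7.81 FPKM, and the other 4 lay at or below the highest IR value. The median of IR-Ori was thus below that of IR, whereas the fitted log2 fold change of IR-Ori against IR was 1.46 ± 0.79, and 0.16 without IR-Ori 6. In IR against sham it was -2.83 ± 0.81, and in IR-Ori against sham -1.36 ± 0.77, or -2.72 without IR-Ori 6.

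TGF-β ligands, receptors and SMADs, with Eif3b, the translation factor subunit that P311 is reported to bind, moved the other way where they moved. Of 13 tested, 2 were higher in IR than in sham and 0 lower by edgeR, where 5.52% of all genes were called higher, with a median log2 fold change of 0.46. Smad7, an inhibitor of TGF-β signalling, averaged 2.04 ± 0.61 FPKM in IR-Ori, 3.61 ± 0.99 in IR and 1.43 ± 0.35 in sham (SD, n = 6 each; log2 fold change 1.27 ± 0.23 in IR against sham, edgeR adjusted p = 0.00346, held without each library). Tgfb1 differed by 0.92 ± 0.27 in IR against sham and -1.21 ± 0.27 in IR-Ori against IR (edgeR adjusted p = 0.042 and 0.0219). Its call in IR against sham was lost without any 1 of sham 3 to 6, IR 1, IR 4 to 6 or IR-Ori 2, 3, 4 or 6, and its call in IR-Ori against IR without IR 4, IR 5 or IR-Ori 2, 3 or 6. Both Tgfb1 calls were also lost by limma and with only the groups compared fitted, and the one in IR against sham with no filter. Tgfb2 was lower in IR-Ori than in IR by -2.27 ± 0.60 (edgeR adjusted p = 0.0407), at 0.05 ± 0.04 FPKM in IR-Ori and 0.25 ± 0.17 FPKM in IR (SD, n = 6 each), and that call was lost without any IR-Ori library or any 1 of IR 4 to 6 or sham 5, with no filter, and with the mitochondrial share as a covariate. Thus 2 of the 13 passed in IR-Ori against IR, both lower, where 3.01% of all genes were called lower, and the median was -0.77.

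Dclk3 (ENSMUSG00000032500, chr9:111268149-111318186, GRCm39, plus strand, protein-coding) encodes a serine/threonine kinase of the doublecortin-like family, known mostly from brain. Lowest, median and highest levels were 0.07, 0.79 and 3.79 FPKM in IR-Ori, 0.14, 0.33 and 0.85 FPKM in IR, and 1.03, 2.00 and 3.65 FPKM in sham. The IR-Ori libraries split evenly, with IR-Ori 1, 5 and 6 at or above the lowest sham value and IR-Ori 2, 3 and 4 at or below the highest IR value. Counts were low, down to 3 in IR-Ori 2 and 6 in IR 5, which limits its precision. In the fit, the log2 fold change was -2.41 ± 0.73 in IR against sham, 1.62 ± 0.72 in IR-Ori against IR and -0.79 ± 0.68 in IR-Ori against sham, and the last 2 were 0.84 and -1.57 without IR-Ori 5. Of its family, Dclk2 alone of 3 genes passed the filter, at 0.06 to 0.10 FPKM as group means, with a log2 fold change of 0.56 ± 0.41 in IR against sham (edgeR adjusted p = 0.437).

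Zfand4 (ENSMUSG00000042213, chr6:116241183-116307263, GRCm39, plus strand, protein-coding) encodes a protein with a ubiquitin-like and an AN1-type zinc finger domain. Its lowest, median and highest level was 4.92, 9.07 and 13.1 FPKM in IR-Ori, 1.89, 2.51 and 4.27 FPKM in IR, and 6.28, 8.44 and 12.6 FPKM in sham. IR stood apart from both other groups, and 4 of 6 IR-Ori libraries were at or above the lowest sham value, while IR-Ori 1 and 2 lay between the IR and sham ranges. On the log2 scale the difference was -1.74 ± 0.30 in IR against sham, 1.75 ± 0.30 in IR-Ori against IR and 0.02 ± 0.29 in IR-Ori against sham. The last was -0.02 with the mitochondrial share as a covariate.

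Its AN1-type relatives went in both directions. Of 6 tested, 2 were higher and 1 lower in IR than in sham by edgeR, where 5.52% of all genes were called higher and 2.36% lower. Zfand2a, induced by arsenite and heat stress and bound to the proteasome, averaged 2.35 ± 0.51 FPKM in IR-Ori, 32.0 ± 36.0 in IR and 2.01 ± 0.54 in sham (SD, n = 6 each). Its log2 fold change was 3.89 ± 0.66 in IR against sham and -3.67 ± 0.65 in IR-Ori against IR (edgeR adjusted p = 0.00211 and 0.00579), and both calls held without each library. Without IR 6 the values were 3.23 and -3.01, and limma did not call the second. With the mitochondrial share as a covariate they were 3.16 and -2.70. In IR against sham Zfand2a was at 4.91 in libraries with a mitochondrial share under 15% (edgeR adjusted p = 0.00412). At a share of 15% and over it was at 0.94 and the call was lost (edgeR adjusted p = 0.143), with 3 libraries a group in each part. That loss was not particular to Zfand2a. Of the 19 calls in IR against sham among all lists of relatives and pathway partners, only that of Sema4c was kept at 15% and over. Under 15% some calls were lost as well, such as that of Acsm1 (edgeR adjusted p = 0.0535). Whether the parts differed was not tested. Zfand5 differed by 1.56 ± 0.45 in IR against sham (edgeR adjusted p = 0.0397), a call lost without any sham library or any 1 of IR 4 to 6 or IR-Ori 2, 3, 4 or 6, and without IR 6 the value was 0.60. It was also lost by limma, with only the IR and sham libraries fitted, and with the mitochondrial share as a covariate. Zfand1 differed by -0.54 ± 0.14 (edgeR adjusted p = 0.0249), a call lost without IR 4 or IR 5, with no filter, by limma, and with only the IR and sham libraries fitted.

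Sec31b (ENSMUSG00000051984, chr19:44505396-44534303, GRCm39, minus strand, protein-coding) encodes the less abundant of the paired Sec31 proteins that form the outer cage of COPII vesicles, which carry cargo out of the endoplasmic reticulum. From lowest to median to highest, its level was 1.84, 2.115 and 2.50 FPKM in IR-Ori, 0.43, 0.57 and 1.39 FPKM in IR, and 1.53, 1.97 and 3.35 FPKM in sham. All 6 IR-Ori libraries were at or above the lowest sham value, and none of them was as low as any IR library. Within IR-Ori the standard deviation of its log2 CPM was 0.09, smaller than in all but 0.418% of the genes tested, and within IR it was above that of 71.0%. The log2 fold change was -1.62 ± 0.28 in IR against sham, 1.54 ± 0.28 in IR-Ori against IR and -0.08 ± 0.27 in IR-Ori against sham.

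None of the COPII coat genes listed beside Sec31b passed. Of 17 tested, 0 were called in IR against sham by edgeR, with 0 at an unadjusted p under 0.05, 0 by DESeq2 and 0 by limma, where 7.89% of all genes passed, and the median log2 fold change was -0.01. Sec31a, the widely expressed paralogue, averaged 16.4 ± 2.15 FPKM in IR-Ori, 12.0 ± 4.32 in IR and 15.4 ± 2.48 in sham (SD, n = 6 each), with a log2 fold change of -0.41 ± 0.22 in IR against sham (edgeR adjusted p = 0.252). Nor did any (0 of 17) pass in IR-Ori against IR by edgeR, with 2 at an unadjusted p under 0.05, 0 by DESeq2 and 0 by limma. A p that misses the threshold does not show equal levels, and whether Sec31b differed more than Sec31a was not tested.

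Tlcd1 (ENSMUSG00000019437, chr11:78067537-78072735, GRCm39, plus strand, protein-coding) encodes a membrane protein with a TLC domain that influences the fatty acids of membrane phospholipids. Its lowest, median and highest level was 7.09, 9.31 and 12.2 FPKM in IR-Ori, 3.69, 4.57 and 5.94 FPKM in IR, and 8.51, 10.5 and 15.8 FPKM in sham. The groups ran in steps, with IR below both others, 3 of 6 IR-Ori libraries within the sham range and IR-Ori 2, 3 and 4 between the IR and sham ranges. Differences on the log2 scale were -1.26 ± 0.22 in IR against sham, 1.01 ± 0.21 in IR-Ori against IR and -0.25 ± 0.21 in IR-Ori against sham. Its 3' end overlaps Rpl23a, a ribosomal protein gene on the opposite strand at 146 FPKM in IR-Ori, 184 in IR and 167 in sham (group means), with a log2 fold change of 0.06 ± 0.24 in IR against sham. Whether counting used strand is not given in the sources used here, so reads of the shared stretch cannot be told apart.

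Among 11 other TLC-domain genes tested of 14, 2 were higher in IR than in sham and 0 lower by edgeR, where 5.52% of all genes were called higher, with a median log2 fold change of 0.04. Cln8, which carries lysosomal enzymes out of the endoplasmic reticulum, averaged 3.87 ± 1.18 FPKM in IR-Ori, 13.1 ± 7.96 in IR and 4.33 ± 1.72 in sham (SD, n = 6 each). Its log2 fold change was 1.49 ± 0.36 in IR against sham, held without each library, and -1.67 ± 0.36 in IR-Ori against IR, lost without IR 4 and by limma (edgeR adjusted p = 0.0167 and 0.0174). Cers6, a ceramide synthase, differed by 1.22 ± 0.33 in IR against sham (edgeR adjusted p = 0.0268), a call lost without sham 1, 2 or 6 or IR 4 or 5, and by limma.

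Keg1, Acsm5 and Tkfc encode the metabolic enzymes among the 10 genes. The windows around their start sites, from 250 bases before to 50 after, are shown. Each of these genes has a single listed start, so that the window is the one to set beside the level of the whole gene. Sema5b and Sec31b also have a single listed start, and their windows are not shown. Capitals mark matches, on either strand, to TGACTCA (AP-1 site), CACGTG (E-box), CAAAGT (HNF4 core), AGGTCA (nuclear receptor site), CCAAT (read by NF-Y), GGGCGG (read by Sp1) or TATAAA (read by TBP). The sequences are RefSeq's on GRCm38.p6, and the coordinates are of that build.
Keg1 promoter, chr19:12695540-12695839, plus strand: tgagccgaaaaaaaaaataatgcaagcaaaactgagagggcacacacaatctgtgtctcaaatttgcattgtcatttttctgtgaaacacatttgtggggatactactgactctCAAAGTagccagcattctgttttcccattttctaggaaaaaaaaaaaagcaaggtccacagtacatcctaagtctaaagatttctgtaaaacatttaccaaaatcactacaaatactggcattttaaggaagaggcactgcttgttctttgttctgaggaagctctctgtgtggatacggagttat
Acsm5 promoter, chr7:119526015-119526314, plus strand: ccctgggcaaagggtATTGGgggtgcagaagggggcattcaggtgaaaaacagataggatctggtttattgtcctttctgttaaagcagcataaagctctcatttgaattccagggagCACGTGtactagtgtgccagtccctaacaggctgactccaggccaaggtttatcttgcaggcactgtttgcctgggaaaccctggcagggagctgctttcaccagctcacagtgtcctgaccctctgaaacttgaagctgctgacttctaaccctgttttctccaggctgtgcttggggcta
Tkfc promoter, chr19:10604209-10604508, minus strand: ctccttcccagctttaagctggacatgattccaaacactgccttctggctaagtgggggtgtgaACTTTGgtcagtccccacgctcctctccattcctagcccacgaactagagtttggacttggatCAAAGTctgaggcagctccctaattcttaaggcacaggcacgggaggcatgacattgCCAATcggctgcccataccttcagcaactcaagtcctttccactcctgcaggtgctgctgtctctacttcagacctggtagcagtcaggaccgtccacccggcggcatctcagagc
CAAAGT, the core of sites read by the liver factor HNF4α, occurs once in the Keg1 window and in both orientations in the Tkfc window, and 14.4% of 32851 windows in the table hold it. CACGTG, an E-box, occurs in the Acsm5 window and in 7.15% of all windows. CCAAT occurs in the Acsm5 and Tkfc windows and in 37.4% of all windows. The matches in these 3 windows do not overlap each other. Of the 10 genes, 8 were matched by symbol to 11 windows in all. Among the windows not shown, CAAAGT occurs in an Adra1b window and in none of Sema5b, Sec31b, Zfand4 or Tlcd1. A match is a description of the letters and shows no binding.

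Keg1 (ENSMUSG00000024694, chr19:12673150-12697266, GRCm39, plus strand, protein-coding), named from kidney, had a lowest, median and highest level of 2.2, 4.605 and 34.4 FPKM in IR-Ori, 1.75, 2.38 and 2.97 FPKM in IR, and 12.7, 22.4 and 33.6 FPKM in sham. The IR libraries lay close together, and IR-Ori spanned from within their range to above the sham range, with IR-Ori 5 and 6 at 21.64 and 34.44 FPKM and the other 4 at 2.2 to 4.70 FPKM. The log2 fold change was -3.27 ± 0.58 in IR against sham, 2.31 ± 0.56 in IR-Ori against IR and -0.96 ± 0.54 in IR-Ori against sham, and the last 2 were 1.61 and -1.71 without IR-Ori 6. Acsm5 (ENSMUSG00000030972, chr7:119118686-119144774, GRCm39, plus strand, protein-coding) had a lowest, median and highest level of 24.3, 31.6 and 42.6 FPKM in IR-Ori, 12.1, 15.1 and 23.9 FPKM in IR, and 29.3, 35.0 and 47.9 FPKM in sham. The IR libraries lay below all others, and 3 of 6 IR-Ori libraries lay within the sham range and 3 between the IR and sham ranges. Its log2 fold change was -1.18 ± 0.20 in IR against sham, 0.97 ± 0.20 in IR-Ori against IR and -0.22 ± 0.20 in IR-Ori against sham. Pdilt, which overlaps Acsm5 on the opposite strand, had log2 fold changes of -1.22 ± 0.41 in IR against sham and 1.06 ± 0.41 in IR-Ori against IR (edgeR adjusted p = 0.0711 and 0.129), and reads of the shared stretch cannot be told apart.

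Of the relatives of these enzymes, Acsm1 passed. Of 5 genes of glycine conjugation and medium-chain acyl-CoA synthesis tested out of 7, 1 was lower in IR than in sham and 0 higher by edgeR, where 2.36% of all genes were called lower, with a median log2 fold change of -0.55. Acsm1, the main hepatic medium-chain synthetase, averaged 120.8 ± 20.4 FPKM in IR-Ori, 98.3 ± 17.7 in IR and 155 ± 24.0 in sham (SD, n = 6 each; log2 fold change -0.72 ± 0.18, edgeR adjusted p = 0.0176). Its call held without each library in turn and was lost with no filter on low counts. Glyat, glycine N-acyltransferase, had a log2 fold change of -0.55 ± 0.30 (edgeR adjusted p = 0.267). By edgeR 0 of the 5 passed in IR-Ori against IR, with 0 at an unadjusted p under 0.05, 0 by DESeq2 and 0 by limma, and Acsm1 was at 0.34 ± 0.18.

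Tkfc (ENSMUSG00000034371, chr19:10565155-10583018, GRCm39, minus strand, protein-coding) phosphorylates glyceraldehyde, the step that brings the second triose of fructose into glycolysis. Levels (lowest, median and highest) were 53.2, 80.3 and 155 FPKM in IR-Ori, 21.75, 35.5 and 47.3 FPKM in IR, and 35.0, 52.6 and 112 FPKM in sham. By median FPKM it was the most abundant of the 10 genes in every group, and it was the only one of them whose IR and sham ranges overlapped in FPKM. All 6 IR-Ori libraries lay above the highest IR library, and IR-Ori 2, 3 and 4, with 103 to 155 FPKM, were the highest, the reverse of Sema5b, Keg1, Nrep and Dclk3, for which these 3 were the lowest in FPKM. The fitted log2 fold change was -1.0 ± 0.35 in IR against sham, 1.49 ± 0.35 in IR-Ori against IR and 0.49 ± 0.35 in IR-Ori against sham. Tkfc overlaps Ddb1 and Cyb561a3 on the opposite strand, whose log2 fold changes in IR-Ori against IR were -0.24 ± 0.23 and 0.73 ± 0.30 (edgeR adjusted p = 0.518 and 0.151), and reads of the shared stretches cannot be told apart.

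Of 7 other genes of fructose breakdown, 1 was lower in IR than in sham and 0 higher by edgeR, where 2.36% of all genes were called lower, with a median log2 fold change of -0.49. It was Slc2a2, the glucose and fructose transporter of hepatocytes, at 24.5 ± 8.37 FPKM in IR-Ori, 15.4 ± 4.33 in IR and 37.7 ± 15.3 in sham (SD, n = 6 each; log2 fold change -1.33 ± 0.29, edgeR adjusted p = 0.0104, held without each library). Khk, the kinase that opens the pathway, had a log2 fold change of -0.57 ± 0.28 (edgeR adjusted p = 0.235). In IR-Ori against IR 0 of 7 passed by edgeR, with 2 at an unadjusted p under 0.05, 0 by DESeq2 and 0 by limma, and Slc2a2 was at 0.70 ± 0.29. In IR-Ori against sham 0 of the 96 genes tested in these 9 lists passed by edgeR, with 9 at an unadjusted p under 0.05, 0 by DESeq2 and 0 by limma.

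**Figure D2:**
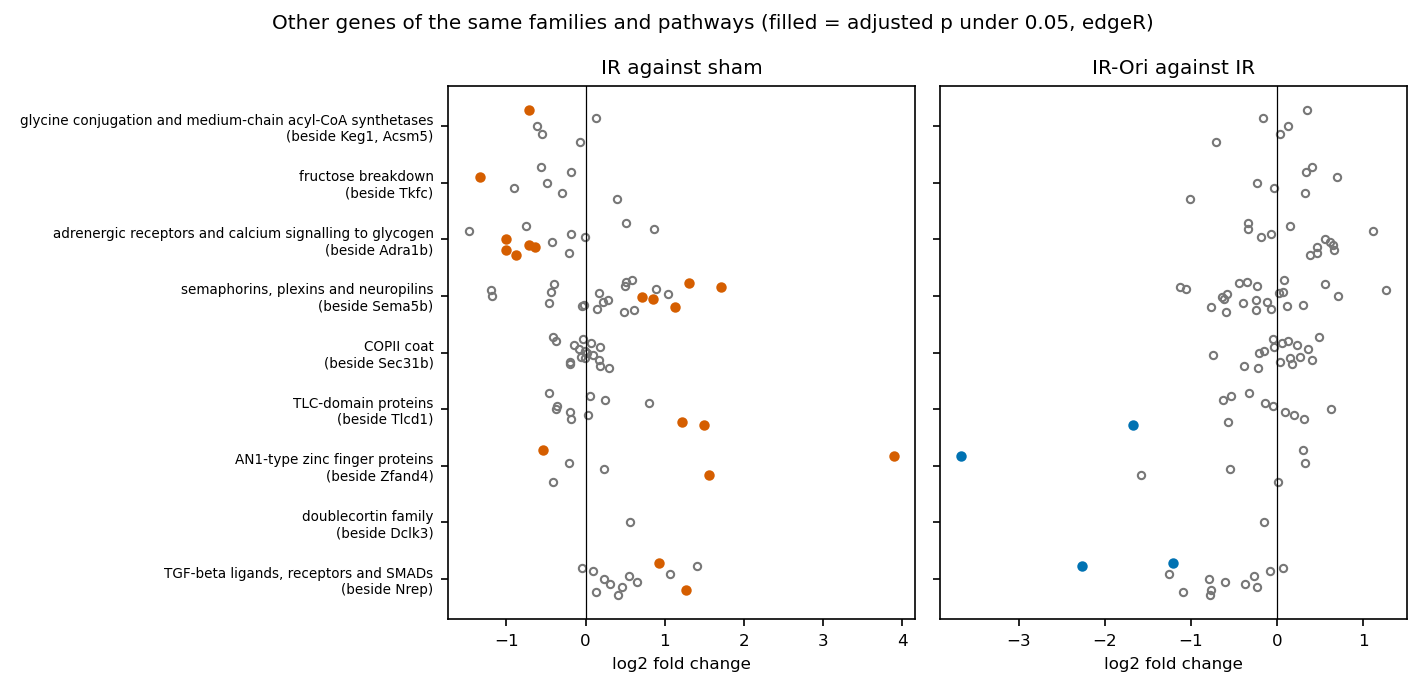
Log2 fold change of each tested gene of the 9 lists of relatives and pathway partners, in IR against sham (left) and IR-Ori against IR (right); filled points have an edgeR adjusted p under 0.05. Filled points lie on the left of 0 for the adrenergic, fructose and glycine lists and on the right for semaphorins, TLC-domain and TGF-β genes in IR against sham.

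**Figure D3:**
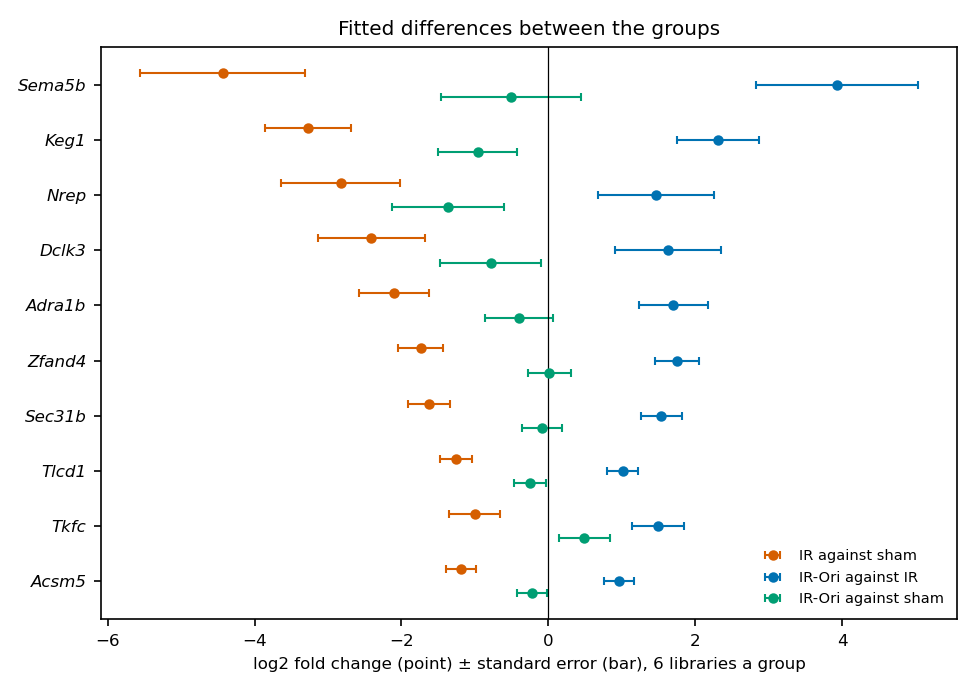
Fitted log2 fold change of each of the 10 genes with its standard error in 3 comparisons of 6 libraries a group. All 10 are below 0 in IR against sham and above 0 in IR-Ori against IR, and for each gene the choice fixed either or both of these directions. In IR-Ori against sham 8 of 10 are below 0, and bars are widest for Sema5b, Nrep and Dclk3.

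How far IR-Ori stood from sham differed from gene to gene. The IR-Ori median was 107% of the sham median for Zfand4 and Sec31b, 152% for Tkfc, 85.5% to 90.1% for Adra1b, Tlcd1 and Acsm5, and 11.3% to 39.5% for Nrep, Keg1, Sema5b and Dclk3. These last 4 were also the most uneven within IR-Ori. Their standard deviations of log2 CPM there, 1.62 to 3.04, exceeded those of at least 99.3% of the genes tested. Within IR, where the levels were low, the same genes exceeded 43.6% to 87.4% of genes, and within sham Keg1, Nrep and Dclk3 exceeded 55.9% to 79.9% and Sema5b 99.9%. Adra1b was the gene whose spread within IR was highest in rank, above 93.7% of genes.

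**Figure D4:**
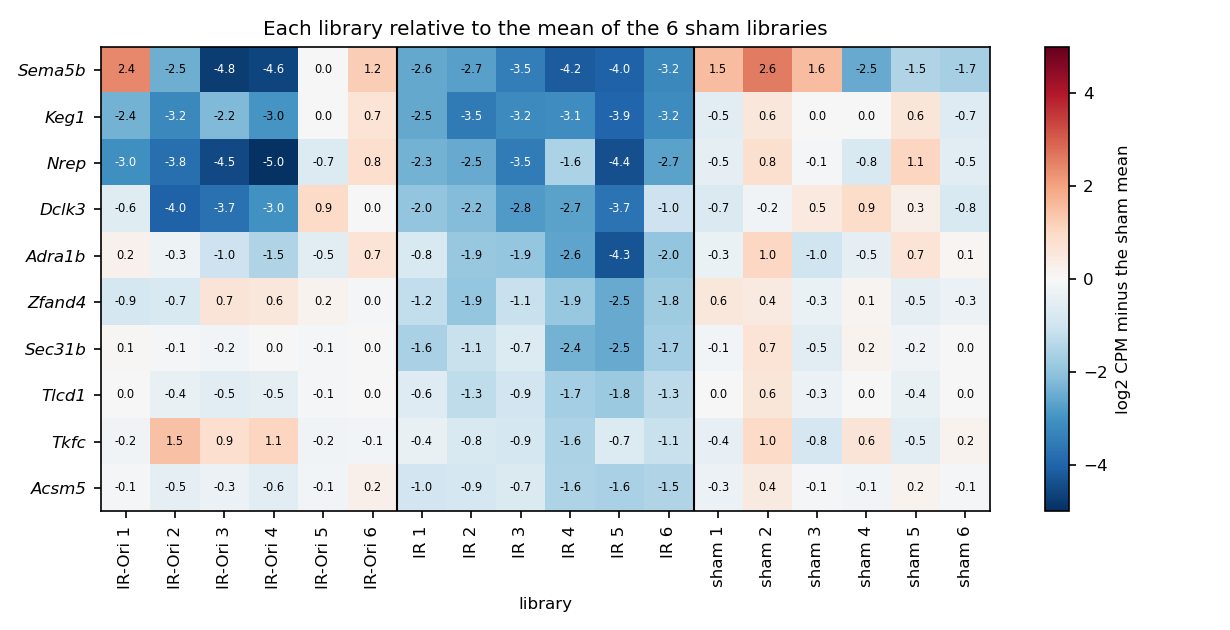
Log2 CPM of each gene in each library minus the mean of the 6 sham libraries, with the value printed in each cell (blue lower, red higher). All 10 genes are below that mean in all 6 IR libraries, and in IR-Ori 2, 3 and 4 the 4 top rows are low while Tkfc is high.

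The mitochondrial share of a library played no part in choosing the genes, so its relation to them within the groups was tested. Of all genes tested, 42.9% passed on this slope by edgeR, 19.9% higher and 23.0% lower with a larger share. Of the 10 genes, 3 passed and 9 had a slope above 0, and their median was 0.18 log2 units per 10 percentage points against -0.01 for all genes. Adra1b had the steepest, 0.52 ± 0.13 per 10 points (SE, edgeR adjusted p = 0.00279), and it passed without each of the 18 libraries in turn, at 0.46 to 0.62. Tlcd1 had 0.18 ± 0.07 (edgeR adjusted p = 0.0318) and Acsm5 0.17 ± 0.07 (edgeR adjusted p = 0.0492). The Tlcd1 call was lost without sham 2, sham 3, IR 1 or IR 5, and the Acsm5 call without 13 of the 18 libraries, with an adjusted p of up to 0.15; it remained without IR 1, IR 3 and IR-Ori 2, 4 and 5. Tkfc was at 0.26 ± 0.12 (edgeR adjusted p = 0.0769) and passed without sham 4 or without IR-Ori 6. Sema5b, Keg1, Nrep, Zfand4 and Sec31b had slopes of 0.08 to 0.35 and Dclk3 one of -0.31, none past the threshold.

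The IR and sham libraries divide evenly at a mitochondrial share of 15%, with IR 4, 5 and 6 and sham 1, 3 and 4 below it. All 10 genes were below 0 in IR against sham on both sides. They were chosen with these libraries, so the split gives sizes and no test of direction. Below 15% the log2 fold changes ran from -4.93 for Sema5b to -1.02 for Tkfc, and at 15% and over from -4.10 for Sema5b to -0.98 for Tkfc. Zfand4 differed most in size among the less variable genes, at -2.24 below and -1.31 above, and Nrep was at -2.15 below and -3.35 above. Whether the sizes differed between the sides was not tested. With the share as a covariate the 10 values in IR against sham ran from -4.33 to -0.90, and in IR-Ori against IR from 0.85 to 3.68.

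After group means were removed, several of the 10 genes kept moving together from library to library. Correlations of these deviations in log2 CPM over 18 libraries are descriptions, since the libraries share depth and composition. The 10 genes were also chosen on these libraries, so their median beside that of all genes is no test. The median Pearson's r over the 45 pairs of the 10 genes was 0.40, against 0.00 over the 106499715 pairs of all genes tested. Keg1 and Nrep were most alike, at 0.90, with 0.94 within IR-Ori, 0.65 within IR and 0.85 within sham. Dclk3 joined them at 0.76 with Keg1 and 0.73 with Nrep. Acsm5, Tlcd1, Adra1b and Sec31b formed another set of high values, from 0.58 to 0.78. Dclk3 and Tkfc ran most opposite, at -0.57, with -0.95 within IR-Ori, -0.10 within IR and 0.00 within sham. Over the 18 libraries Zfand4 was least tied to the rest, from -0.18 with Sema5b to 0.45 with Sec31b, but its values differed between groups. Within IR they ran from 0.18 with Tkfc to 0.90 with Tlcd1, all above 0. Within IR-Ori they ran from -0.69 with Adra1b to 0.16 with Keg1, and within sham from -0.29 with Dclk3 to 0.72 with Tlcd1.

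**Figure D5:**
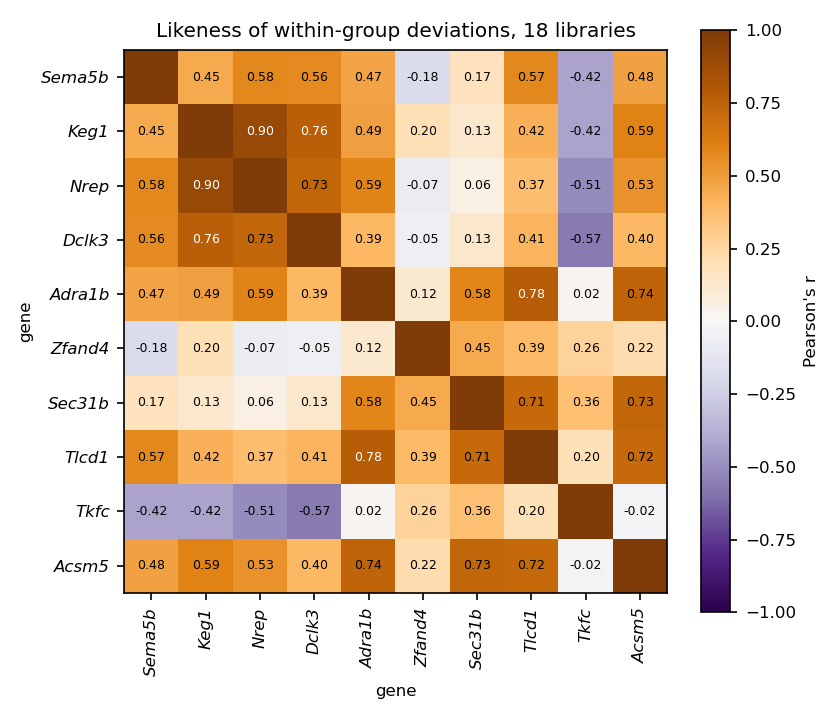
Pearson's r between the 10 genes in log2 CPM after subtracting each group's mean, over 18 libraries. Keg1 and Nrep reach 0.90, Tlcd1 and Adra1b 0.78, and Tkfc is below 0 with Sema5b, Keg1, Nrep and Dclk3.

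Over all other tested genes, the closest by the same measure was Abcc6 for Adra1b (r = 0.97), Rnf152 for Dclk3 (0.95), Shmt2 for Acsm5 (0.94), Prkd3 for Nrep (0.92), Ttc39c for Tlcd1 (0.90), Nrep for Keg1 (0.90), Fcgr2b for Sema5b (0.87), Mcoln1 for Sec31b (0.86) and Gnpda2 for Tkfc (0.85). The closest gene to Zfand4, at 0.77, has no symbol in the files. Of the nearest tested genes on each side of the 10, 0 of 20 passed in IR against sham by edgeR (7 at an unadjusted p under 0.05, 2 by DESeq2, 0 by limma), where 7.89% of all genes passed, and so small a number of genes shows nothing particular to them. In IR-Ori against IR 1 of the 20 passed, where 3.6% of all genes passed, which likewise shows nothing particular. It was Slc49a4, after Sema5b, with a log2 fold change of -1.27 ± 0.33 (edgeR adjusted p = 0.0378), opposite to Sema5b. Keg1 overlaps the antisense RNA Gm15962 on the opposite strand, which had 148 counts over the 18 libraries. Gm15962 was at 0.67 FPKM in IR-Ori, 0.05 in IR and 1.13 in sham (group means). Sema5b overlaps the pseudogene Gm5963, also on the opposite strand, which had 41 counts. Gm5963 was at 0.59 FPKM in IR-Ori, 0.99 in IR and 0.365 in sham (group means). Neither Gm15962 nor Gm5963 entered the fit, and reads of the shared stretches cannot be told apart.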

How the data were processed

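RNA was sequenced from 18 mouse liver libraries, 6 in each of IR-Ori, IR and sham. The submitters' processing notes name cutadapt 1.9.1 and HISAT2 2.2.1, which trim and align reads, the build GRCm39, and DESeq2. How genes were counted (tool, strand, annotation) is not given in the sources used here. In the deposited table are the authors' unscaled counts per gene, 12449529 to 19798188 in total per library, and FPKM, which the authors made by dividing the counts by exonic gene size and library total, mitochondrial genes included. That formula returned 100% of the deposited FPKM within 0.0051. FPKM of nuclear genes are therefore smaller where the mitochondrial share is larger, while fold changes were scaled between libraries. Count columns all differed; libraries of 1 group had a chi-square of at least 16.0 per gene (genes with 20 or more counts).

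The tests of counts used edgeR 4.0.16 under R 4.3.3 (filterByExpr with minimum count 10 and minimum total 15, TMM scaling, 1 quasi-likelihood fit of all 18 libraries, two-sided F tests, Benjamini-Hochberg adjustment over 14595 genes, threshold 0.05). Standard errors are the size of the log2 fold change over the square root of F. The mitochondrial slope adds each library's percentage of mitochondrial counts to the group factor. Log2 CPM used a prior count of 2. The scripts were tested on simulated data. Alternatives were DESeq2 1.42.0, limma 3.58.1 on log2(FPKM + pseudocount of 1 or 0.1), other scalings, no filter, the mitochondrial share as covariate, the replicate block, parts of the libraries, and each library left out.

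The 10 genes and the lists of relatives, pathway partners and cell type markers were chosen with earlier results of these data known. From each list the text names the genes that passed and, where few did, genes with the smallest p in IR against sham. It also names the other gene most alike to each of the 10, and overlapping or nearest genes. Biotypes came from GENCODE M21 by identifier, and promoter windows from RefSeq on GRCm38.p6 by symbol.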

Additional observations from a re-analysis of the deposited data

Results flagged for a closer look

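In a group of 6 libraries, 1 value was marked where its gap to the next exceeded 0.625 of the group's range (Dixon's 95% limit). This was applied to 33 groups of values, and chance marks about 1 group in 20. Nrep was at 7.81 FPKM in IR-Ori 6, with a gap of 0.65 of the range, and the next library, IR-Ori 5, was at 2.80 FPKM. Tlcd1 was at 15.76 FPKM in sham 2, with a gap of 0.65 of the range, where the other sham libraries had 8.51 to 11.04 FPKM; sham 2 also had the largest mitochondrial share in sham, 42.8%. The mitochondrial share was 14.11% in IR-Ori 5, with a gap of 0.71 of the range, where the other IR-Ori libraries had 26.8% to 32.0%.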

How the results depend on the processing

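All 10 genes were below 0 in IR against sham and above 0 in IR-Ori against IR under every alternative and without each library in turn. For each gene the choice fixed either or both of these directions, and the comparisons share the IR libraries, so this is no test. Counts of genes called, of 806 higher and 345 lower in IR against sham, were 705 lower by DESeq2, 378 higher and 200 lower by limma (388 and 197 with a pseudocount of 0.1), 718 lower with the mitochondrial share as covariate, 582 lower in libraries under a share of 15%, and 85 higher and 32 lower in the others, each with 3 libraries a group. Of 87 higher and 439 lower in IR-Ori against IR, DESeq2 gave 449 and 886, limma 38 and 87 (22 and 69 with a pseudocount of 0.1), the fit of only those groups 24 and 148, and the covariate 231 lower. For IR-Ori against sham DESeq2 gave 34 higher and 4 lower where edgeR gave 0. On the mitochondrial slope, with 2898 higher and 3356 lower, limma gave 1565 higher (1585 with a pseudocount of 0.1). The cause of these shifts was not tested.

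With each library left out in turn, IR against sham had 442 to 920 higher and 134 to 640 lower (lowest without IR 4 and IR 5, highest without IR 1), IR-Ori against IR had 11 to 319 higher and 140 to 737 lower (lowest without IR 5 and IR 4, highest without IR 1), and the slope 2226 to 2929 higher and 2754 to 3375 lower. Slopes of 3 genes changed sign, none of them past the threshold: Sema5b ran from -0.0399 without sham 2 to 0.4585, Keg1 from -0.0032 without IR-Ori 6 to 0.2908, and Nrep from -0.0024 without IR-Ori 6 to 0.3948.

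Replicate numbers were not taken to pair the libraries, since not every same-numbered pair deviated together at a correlation over 0.1: 4 of 6 pairs did in IR-Ori against IR (0.01 to 0.42, all above 0), 1 of 6 in IR against sham (-0.44 to 0.34) and 1 of 6 in IR-Ori against sham (-0.36 to 0.30). A shared source of IR-Ori and IR libraries with 1 number is therefore not settled. With the replicate block the counts were 453 higher and 191 lower in IR against sham, 28 and 135 in IR-Ori against IR, and 1763 and 2202 on the slope, where Sema5b was at -0.1346. Under the block the only call of the glycine list, Acsm1, was lost, 1 of 5 adrenergic calls (Phka2) was kept, and Zfand1, Zfand5, Tgfb1 in IR against sham, Tgfb2, Sema6d, Plxna1 and both Cln8 calls were lost. Low counts limit Sema5b, Nrep, Dclk3 and Sec31b most. For them limma on log2(FPKM + 1), which shrinks low levels, gave smaller differences in IR against sham, of -1.64, -1.72, -1.11 and -0.88 in that order, where edgeR gave -4.43, -2.83, -2.41 and -1.62; in IR-Ori against IR Nrep was at 0.32.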
